A study of Homo sapiens with 32 samples.

Results

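The 10 genes described here encode the inhibitors of cyclin-dependent kinases (CDKs) and the pocket proteins: CDKN1A, CDKN1B and CDKN1C of the CIP/KIP family, CDKN2A, CDKN2B, CDKN2C and CDKN2D of the INK4 family, and RB1, RBL1 and RBL2. They were chosen by name, and all 10 were found among the 48804 Ensembl genes of the count table. RNA-seq was performed on MDA-MB-468, an established triple-negative breast cancer cell line. Cells in culture flasks received PBS (control), 0.5 μM of salinomycin (Sal), a polyether ionophore, 15 μM of dasatinib (Das), an inhibitor of SRC-family and ABL kinases, or the combination of those amounts (S + D). RNA was taken after 24 h or 72 h. Each of the 8 conditions had 4 libraries, described by the study as biological replicates, which makes 32 in all. The line is known to have lost RB1, so it is a model of cells without that pocket protein.

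CDKs with their cyclins drive the cell from G1 into S phase. INK4 proteins bind CDK4 and CDK6 alone and keep them from cyclin D, whereas CIP/KIP proteins bind the assembled CDK-cyclin complexes, those of CDK2 above all. The pocket proteins are what these kinases phosphorylate: unphosphorylated RB1 holds the activating E2F factors, and RBL1 (p107) and RBL2 (p130) work with the repressive E2F4 and E2F5. In resting cells RBL2 joins E2F4, a DP protein and the MuvB core in the DREAM complex, which keeps cell cycle genes silent. RBL1 is itself a known E2F target gene that is expressed in cycling cells.

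Total counts ran from 25692561 to 42769687 per library. In each condition 3 libraries carry the replicate numbers 1 to 3 and 1 has no number, and the 8 unnumbered libraries stood apart: their deviations from the group means correlated across genes at 0.588 to 0.666 at 24 h and 0.522 to 0.611 at 72 h. Among the members this was plainest for CDKN1A and CDKN2D, whose unnumbered library was the highest of its group in all 8 conditions, at 1.32 to 2.90 times and 1.18 to 3.03 times the mean of the numbered ones. Values come from all 4 libraries unless they are said to come from the 3 numbered ones. Replicate 3 of Das at 72 h lay near the controls for several members, and results that rest on it are given without it as well. The epithelial genes EPCAM, CDH1, KRT8 and KRT18 were present in every library, the lowest level being 195 CPM (counts scaled to a common library size), the hormone receptor gene PGR did not pass 3 counts anywhere, and the receptor genes ESR1 (139 to 353 counts) and ERBB2 (56.8 to 192 CPM) had reads in every library. Of 4 marker genes of blood, connective tissue or muscle cells, PTPRC did not pass 5 counts, COL3A1 2 counts and ACTA2 20 counts in any library, while COL1A1 was present. COL1A1, at 18.2 to 120 CPM, made up nearly all of the sum of these 4 genes. Their sum at 24 h ran from 18.6 to 37.0 CPM in the control, 23.3 to 59.0 CPM with Sal, 44.4 to 62.6 CPM with Das and 41.0 to 68.3 CPM with S + D. At 72 h it ran from 24.3 to 32.6 CPM, 55.6 to 77.2 CPM, 33.9 to 68.3 CPM and 68.2 to 120 CPM in the same order, and its part in the results was not tested.

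Upstream sequences are shown for 4 members, RBL1 and CDKN1A as the genes with the largest fall and rise at 72 h and the neighbours CDKN2A and CDKN2B because they moved in opposite directions. RefSeq (GRCh38.p14) gave windows from 250 bases before to 50 after a start site for 9 of the 10 members, 13 windows in all. CDKN1C had none, and the RB1 window belongs to a start inside the gene, so the promoter at the beginning of RB1 was not searched. Of each window shown, the 250 upstream bases are printed 5′ to 3′. Capitals in RBL1 mark matches to an E2F motif (TTTCCCGC, TTTGGCGC, TTTCGCGC or TTTGCCGC), and capitals in the other 3 mark the GC box (GGGCGG, which reads CCGCCC where it lies on the other strand).
RBL1, chr20:37095998-37096247, minus strand: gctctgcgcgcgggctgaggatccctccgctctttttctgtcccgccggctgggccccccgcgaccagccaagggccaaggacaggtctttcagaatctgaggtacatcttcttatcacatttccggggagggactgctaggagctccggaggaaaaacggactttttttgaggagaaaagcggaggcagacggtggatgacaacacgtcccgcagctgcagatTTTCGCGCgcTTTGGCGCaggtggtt
CDKN1A, chr6:36678464-36678713, plus strand: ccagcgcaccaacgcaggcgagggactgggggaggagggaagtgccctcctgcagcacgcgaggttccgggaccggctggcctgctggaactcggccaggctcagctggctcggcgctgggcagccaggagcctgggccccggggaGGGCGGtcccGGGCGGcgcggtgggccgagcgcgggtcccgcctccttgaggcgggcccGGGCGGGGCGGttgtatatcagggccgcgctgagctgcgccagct
CDKN2A, chr9:21974858-21975107, minus strand: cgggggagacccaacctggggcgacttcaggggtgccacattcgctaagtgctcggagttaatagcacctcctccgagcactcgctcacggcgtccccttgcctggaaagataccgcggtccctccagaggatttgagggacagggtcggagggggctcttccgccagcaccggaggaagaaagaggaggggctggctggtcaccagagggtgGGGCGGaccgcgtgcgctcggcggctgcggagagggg
CDKN2B, chr9:22009306-22009555, minus strand: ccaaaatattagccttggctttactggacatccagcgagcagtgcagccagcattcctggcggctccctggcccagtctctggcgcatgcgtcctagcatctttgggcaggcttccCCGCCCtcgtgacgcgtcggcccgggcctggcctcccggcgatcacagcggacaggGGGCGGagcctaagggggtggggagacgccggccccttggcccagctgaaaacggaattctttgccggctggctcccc
Among the windows searched, that of RBL1 alone held an E2F match, TTTCGCGC beginning 26 bases and TTTGGCGC 16 bases before the start. Of all 35116 windows in the table, 3.31% held such a match on either strand. The GC box occurred 4 times in the CDKN1A window, in which the last 2 copies (GGGCGGGGCGG) overlap by a base, and 2 times in the CDKN2B window, both genes that rose, but also 2 times in the CDKN2A window (1 of them after the start, outside the bases shown), 6 times in a CDKN2C window and 3 times in that of CDKN2D, and 45.0% of all windows held at least 1. RBL2, which also rose, had 2 GC boxes in a window, and CDKN1B had 1. The CDKN2A window shown belongs to the start from which p16INK4a is made, and the window of the p14ARF start held neither motif. The motif TTTGAA, called CHR, was found in 1 member window, that of RBL2, against 15.2% of all windows. These are matches of letters, not sites shown to be bound.

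**Figure D1:**
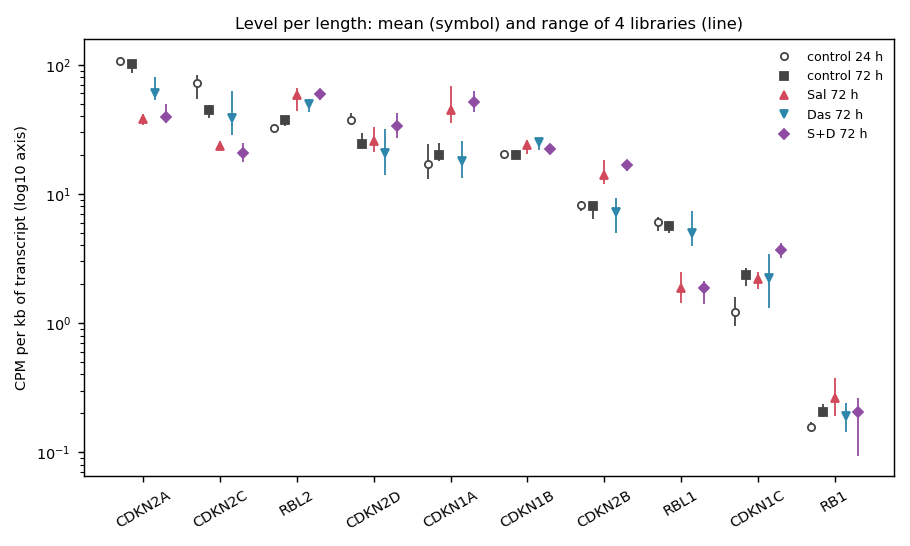
Level of the 10 genes in CPM per kb of transcript (vertical axis, log10), ordered by the 72 h control. Symbols are means of 4 libraries and lines their lowest and highest value. CDKN2A stands highest in both controls and RB1 lowest in every group.

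In untreated cells CDKN2A and CDKN2C stood highest per length of transcript, and RB1 lowest. Levels were compared between genes as CPM per kb of the canonical transcript. In the 24 h control CDKN2A stood highest, at 106 CPM per kb, followed by CDKN2C at 72.5, CDKN2D at 37.3 and RBL2 at 32.5 CPM per kb, each apart from the next over the 4 libraries. CDKN1B (20.3 CPM per kb) and CDKN1A (16.9 CPM per kb) overlapped in range. CDKN2B (8.24), RBL1 (6.11), CDKN1C (1.22) and RB1 (0.158) ended the order, again apart from one another. The 72 h control kept CDKN2A and CDKN2C in front (101 and 45.0 CPM per kb), but CDKN2C and RBL2, CDKN2D and CDKN1A, and CDKN1A and CDKN1B then overlapped. With S + D at 72 h RBL2 (59.1 CPM per kb), CDKN1A (51.4) and CDKN2A (39.4) came first, each overlapping the next. The place of CDKN2A depends on the transcript taken, 978 bases long, since its annotated exons together cover 3885 bases. That of CDKN2C does too, at 995 bases against 3018. Without scaling by length, RBL2 stood above both in the 24 h control, at 158 CPM against 104 CPM for CDKN2A and 72.1 CPM for CDKN2C.

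RB1 on chromosome 13 (48877880 to 49173572 of GRCh37, plus strand) had 15 to 71 counts per library, between 0.447 and 1.804 CPM. LPAR6, a receptor gene that lies inside an intron of RB1, had 0 counts in all 32 libraries. A count of 0 in a single library, taken alone, allows an expected count of up to about 3. ITM2B, which lies beside RB1, had 91.1 ± 7.77 CPM (SD, n = 4) in the 24 h control and 120 ± 16.9 CPM (SD, n = 4) in the 72 h control. Reads on RB1 were thus few beside ITM2B, which was well expressed. RCBTB2, which also overlaps RB1, did not pass the filter on low counts at 72 h. With Sal at 24 h, RB1 stood at 1.24, 1.18, 1.11 and 1.60 CPM in replicates 1, 2 and 3 and the unnumbered library, against 0.757, 0.740, 0.690 and 0.823 CPM in the control. The groups did not overlap, but the log2 difference of 0.75 (SE 0.23) did not pass the test across all genes (adjusted p = 0.0369). With S + D at 24 h the value was 0.60 (SE 0.23, adjusted p = 0.0424), and 0.77 (adjusted p = 0.00363) from the numbered libraries alone. At 72 h the 3 treatments gave 0.34 (SE 0.31), -0.13 (SE 0.31) and -0.02 (SE 0.31) for Sal, Das and S + D.

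**Figure D2:**
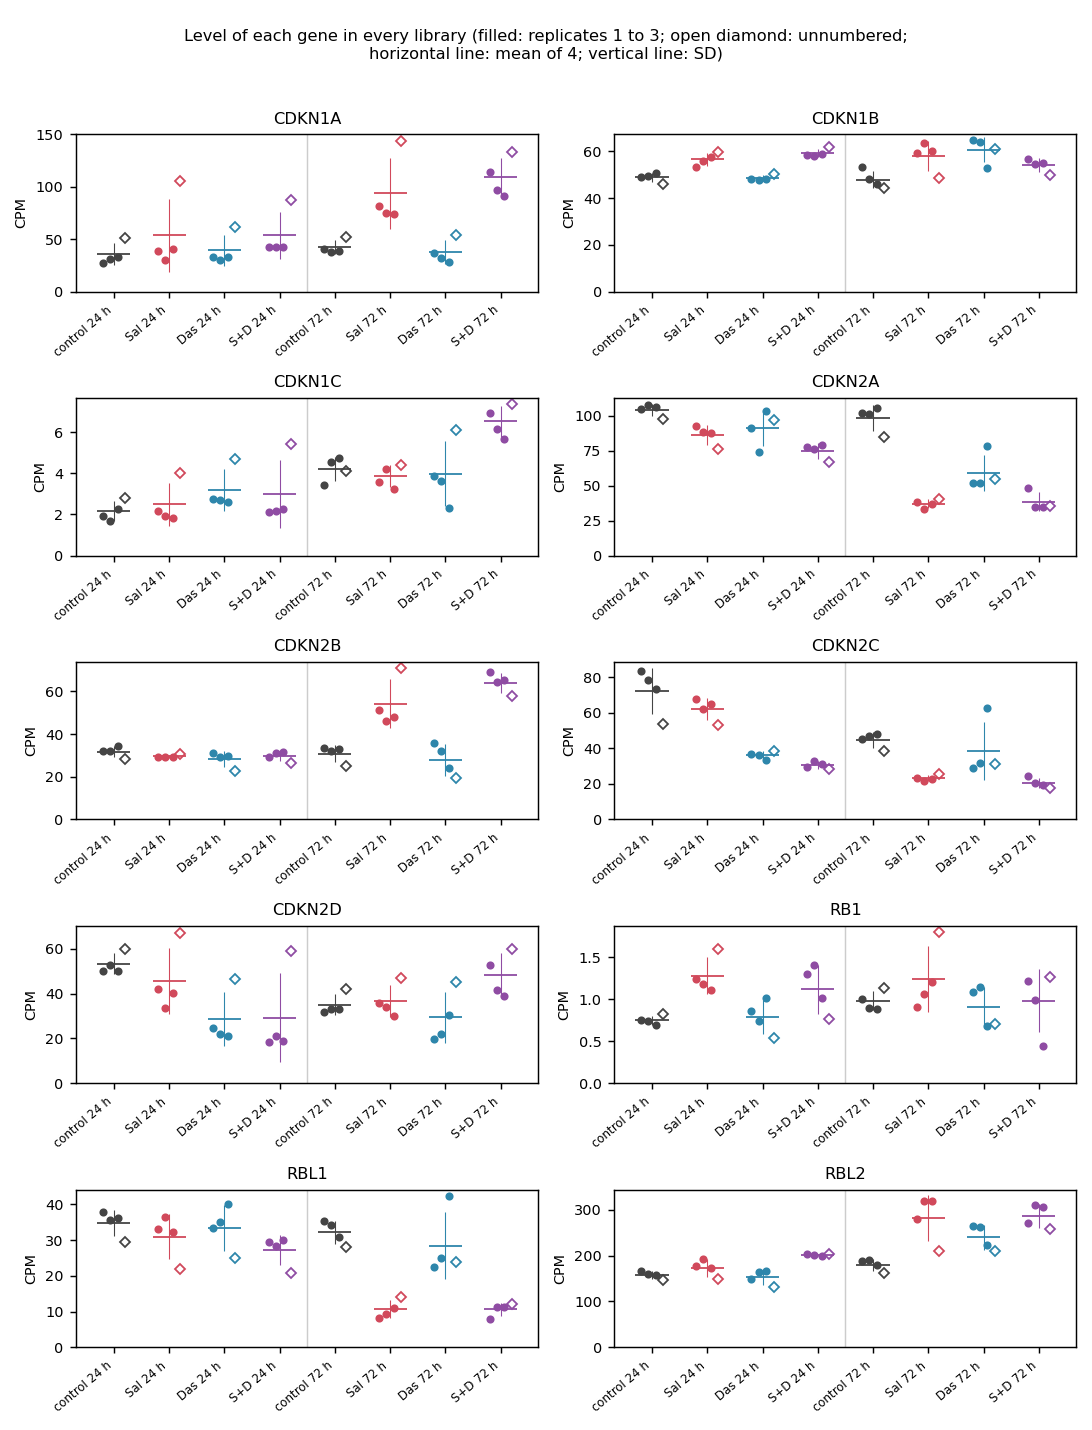
Level of each of the 10 genes in every library (vertical axes, CPM from 0) by condition. Filled points are replicates 1 to 3, open diamonds the unnumbered library, horizontal lines the mean of 4 and vertical lines the SD. At 72 h, RBL1 and CDKN2A with Sal and with S + D lie below every control library and CDKN1A, CDKN2B and RBL2 above them.

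Among the CIP/KIP genes, CDKN1A rose at 72 h wherever Sal was present. CDKN1A (chromosome 6, 36644237 to 36655114 of GRCh37, plus strand) encodes p21, an inhibitor of CDK2. In the 72 h control its level was 41.0, 38.0, 38.7 and 52.6 CPM in replicates 1, 2 and 3 and the unnumbered library. Sal gave 81.9, 74.9, 74.4 and 144 CPM. S + D gave 114, 97.3, 91.2 and 134 CPM. Every library with Sal or S + D lay above every control library, and the unnumbered one was the highest of each group. CDKN1A was 2.18-fold higher with Sal (log2 1.12, SE 0.23, adjusted p = 0.000313 by the quasi-likelihood test of edgeR, Benjamini-Hochberg adjusted over all genes as throughout) and 2.53-fold higher with S + D (log2 1.34, SE 0.23, adjusted p = 5.61e-05), or at log2 0.95 and 1.34 from the numbered libraries. Das left CDKN1A at 36.7, 32.03, 28.1 and 54.3 CPM, which overlapped the control (log2 -0.18, SE 0.22, adjusted p = 0.568). In bulk RNA, a change in the share of cells that express a gene and a change of RNA per cell cannot be told apart.

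At 24 h the CDKN1A libraries overlapped between groups, since the unnumbered ones stood far above the rest. The control gave 27.6, 31.6, 32.8 and 51.2 CPM, and S + D gave 42.7, 42.7, 42.2 and 87.0 CPM. The log2 difference was 0.61 (SE 0.37, adjusted p = 0.188) with all libraries and 0.49 (adjusted p = 0.000106) from the numbered ones. The call of a rise with S + D at 24 h thus depends on whether the unnumbered libraries are included. Its direction does not, since the unnumbered S + D library (87.0 CPM) also lay above the unnumbered control (51.2 CPM). With Sal at 24 h the values were 38.7, 30.4, 40.3 and 106 CPM (log2 0.57, SE 0.37, adjusted p = 0.347).

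CDKN1B (chromosome 12, 12838432 to 12875303 of GRCh37, plus strand), which encodes p27, the inhibitor of CDK2 that the SKP2 ubiquitin ligase marks for destruction, changed little. In the 24 h control CDKN1B stood at 49.1, 49.6, 50.8 and 46.3 CPM and with S + D at 58.6, 58.0, 58.9 and 61.9 CPM. The groups were apart, and the rise of 1.24-fold was called (log2 0.31, SE 0.06, adjusted p = 0.000961), though not with no filter on low counts (adjusted p = 0.021). Sal at 24 h was also apart from the control (log2 0.20, SE 0.06, adjusted p = 0.0479), a rise called by DESeq2 alone (adjusted p = 0.00173). At 72 h the log2 differences were 0.26 (SE 0.11, adjusted p = 0.0418) with Sal, 0.33 (SE 0.11, adjusted p = 0.0211) with Das and 0.16 (SE 0.11, adjusted p = 0.203) with S + D. The value with Sal was 0.33 and passed (adjusted p = 0.00917) without the unnumbered Sal library. Without Das replicate 3 the value with Das was 0.41 (SE 0.11) and passed (adjusted p = 0.00664). DESeq2 called CDKN1B with Das at 72 h from all libraries (adjusted p = 0.00991).

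CDKN1C (chromosome 11, 2904443 to 2907005 of GRCh37, minus strand), the gene of p57, an imprinted inhibitor, was the lowest of the family, from 1.67 to 7.35 CPM over all libraries. At 72 h it stood at 3.45, 4.55, 4.73 and 4.09 CPM in the control and at 6.92, 6.15, 5.67 and 7.35 CPM with S + D. All 4 libraries with S + D lay above the control, yet the log2 difference of 0.61 (SE 0.22) missed the threshold (adjusted p = 0.0231). Between the controls CDKN1C differed without overlap, the 72 h libraries lying above those of 24 h, but the log2 difference of 0.95 (SE 0.30) also missed the threshold (adjusted p = 0.0474). From the numbered libraries that difference was 1.12 and passed (adjusted p = 8.39e-05).

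**Figure D3:**
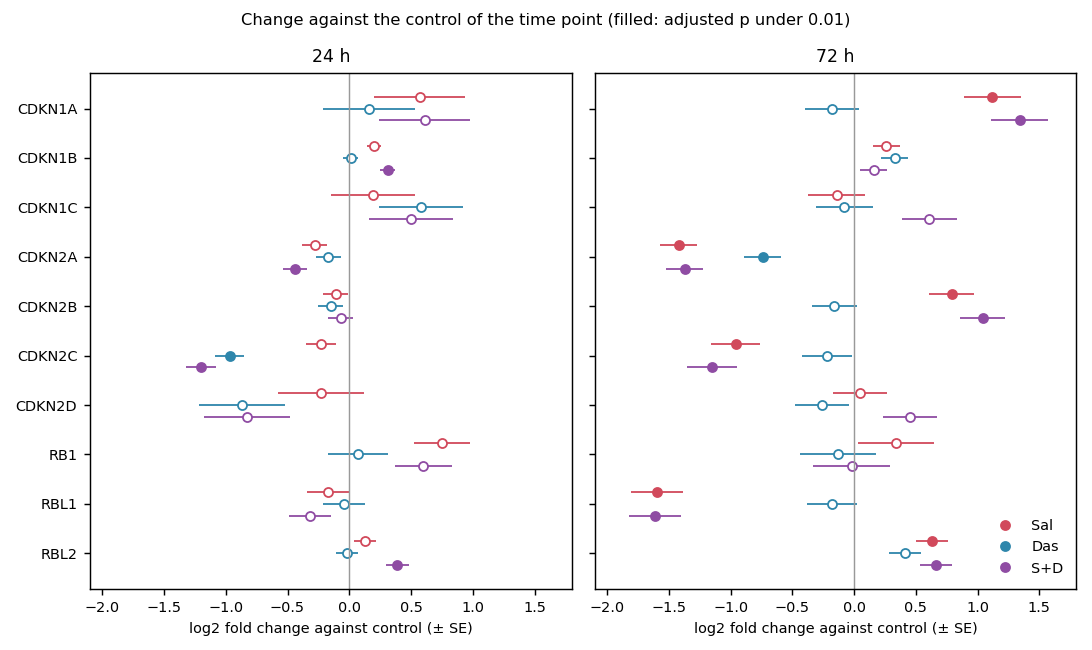
Log2 fold change (horizontal axis) of each of the 10 genes with Sal, Das and S + D against the control of its time point, with the standard error of the fit. Filled points passed an adjusted p of 0.01. At 72 h, Sal and S + D have the same 6 genes filled.

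The INK4 genes split at 72 h: CDKN2A and CDKN2C fell with Sal and S + D, CDKN2B rose, and CDKN2D did not pass the test. CDKN2A (chromosome 9, 21967751 to 21995300 of GRCh37, minus strand) encodes p16INK4a, which blocks CDK4 and CDK6, and from another start p14ARF, which blocks MDM2. In the 72 h control CDKN2A stood at 102, 101, 106 and 84.9 CPM. Sal brought it to 38.3, 33.4, 36.6 and 40.4 CPM, and S + D to 48.6, 35.01, 34.7 and 35.6 CPM. Both groups were clear of the control, the fall being 2.68-fold with Sal (log2 -1.42, SE 0.15, adjusted p = 3.78e-07) and 2.59-fold with S + D (log2 -1.37, SE 0.15, adjusted p = 4.49e-07), or at log2 -1.53 and -1.40 from the numbered libraries. At 24 h CDKN2A already stood at 77.6, 76.2, 79.0 and 66.8 CPM with S + D against 105, 108, 106 and 97.6 CPM in the control, a called fall of 1.36-fold (log2 -0.44, SE 0.10, adjusted p = 0.00253). At 72 h with Das CDKN2A was at 51.9, 52.1, 78.4 and 54.6 CPM, where replicate 3 came nearest the control. It was the only member called with Das at 72 h (log2 -0.74, SE 0.15, adjusted p = 0.00103), and the value without replicate 3 was -0.89 (SE 0.13, adjusted p = 5.17e-05). The counts do not separate p16INK4a from p14ARF, and 15.3% of the CDKN2A exon bases are shared with the antisense RNA gene CDKN2B-AS1, from which reads could not be told apart.

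CDKN2B (chromosome 9, 22002902 to 22009304 of GRCh37, minus strand), the gene of p15INK4b, lies 7601 bases from CDKN2A and is known as a target of TGF-beta signalling that MYC represses. Its levels in the 72 h control were 33.5, 31.96, 33.2 and 24.8 CPM. Sal raised them to 51.4, 46.1, 48.1 and 71.1 CPM and S + D to 68.8, 64.5, 65.3 and 57.6 CPM. No library of either treatment overlapped the control. The rise was 1.73-fold with Sal (log2 0.79, SE 0.18, adjusted p = 0.000812, or 0.54 from the numbered libraries) and 2.05-fold with S + D (log2 1.04, SE 0.18, adjusted p = 6.64e-05, or 0.99). With Das CDKN2B stood at 35.9, 31.99, 24.2 and 19.2 CPM and overlapped the control (log2 -0.16, SE 0.18, adjusted p = 0.522). At 24 h its log2 differences lay between -0.15 and -0.07 for the 3 treatments, none of them called.

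The ratio of these neighbours was taken within each library. Per length, CDKN2A was 12.6 ± 0.628 times CDKN2B in the 72 h control (SD, n = 4), 2.76 ± 0.349 times with Sal, 9.02 ± 3.49 times with Das and 2.36 ± 0.317 times with S + D, so that Sal and S + D lay below every control library. At 24 h the ratio was 12.9 ± 0.555 in the control and 9.96 ± 0.341 with S + D. Of the other genes at this locus, MTAP, an enzyme of methionine salvage, was lower at 72 h with Sal (log2 -0.72, SE 0.13, adjusted p = 0.000105) and S + D (-0.85, SE 0.13, adjusted p = 2e-05), as was CDKN2B-AS1 (-0.82 and -1.08, from 82 to 130 counts per library in the control). DMRTA1 was higher (0.98 and 0.65), so the genes of the region did not move one way.

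CDKN2C (chromosome 1, 51426417 to 51440306 of GRCh37, plus strand) encodes p18INK4c, an inhibitor of CDK4 and CDK6 that is expressed in cycling cells, and it was the only member called with Das at 24 h. In the 24 h control CDKN2C stood at 83.3, 78.3, 73.2 and 53.6 CPM. Das gave 36.8, 36.0, 33.7 and 38.6 CPM, and S + D gave 29.2, 33.0, 31.4 and 28.6 CPM. Neither group overlapped the control. The gene was 1.96-fold lower with Das (log2 -0.97, SE 0.12, adjusted p = 3.34e-05) and 2.30-fold lower with S + D (log2 -1.20, SE 0.12, adjusted p = 1.25e-06). Sal alone gave 67.7, 62.2, 64.8 and 53.4 CPM, which overlapped the control through the unnumbered libraries (log2 -0.23, SE 0.12, adjusted p = 0.248, and -0.26 with an adjusted p of 0.00331 from the numbered libraries). An annotated gene absent from the count table shares 20.4% of the CDKN2C exon bases, and genes in that table share 0.0%.

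At 72 h CDKN2C in the control was at 45.5, 47.0, 48.2 and 38.5 CPM, below the 24 h control (log2 -0.69, SE 0.17, adjusted p = 0.0111). That difference passed without the unnumbered 24 h control (-0.81, adjusted p = 0.00469). Sal gave 23.4, 21.8, 22.9 and 25.4 CPM (log2 -0.96, SE 0.20, adjusted p = 0.000444) and S + D 24.6, 20.5, 19.1 and 17.6 CPM (log2 -1.15, SE 0.20, adjusted p = 7.74e-05), or -1.07 and -1.15 from the numbered libraries. Both treatments lay below every control library. With Das the values were 28.7, 31.8, 62.6 and 31.0 CPM, and replicate 3 stood above all controls while the other 3 stood below them. The log2 difference was -0.22 (SE 0.20, adjusted p = 0.405) with it and -0.54 (SE 0.13, adjusted p = 0.00237) without it.

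CDKN2D (chromosome 19, 10677136 to 10679735 of GRCh37, minus strand), the gene of p19INK4d, was the member that depended most on the unnumbered libraries. At 24 h it stood at 50.2, 52.5, 50.1 and 60.0 CPM in the control, at 24.7, 22.2, 20.9 and 46.6 CPM with Das and at 18.4, 21.1, 18.9 and 58.9 CPM with S + D. In the numbered libraries both treatments lay far below the control, whereas the unnumbered S + D library did not. The log2 differences of -0.87 (SE 0.35, adjusted p = 0.0848) and -0.83 (SE 0.35, adjusted p = 0.0648) were not called. With only the unnumbered S + D library left out, the second was -1.42 and passed (adjusted p = 0.000459). From the numbered libraries they were -1.14 (adjusted p = 3.21e-09) and -1.37 (adjusted p = 9.97e-11). At 72 h CDKN2D was at 31.6, 33.1, 33.2 and 41.9 CPM in the control and at 52.5, 41.4, 38.9 and 59.99 CPM with S + D (log2 0.45, SE 0.22, adjusted p = 0.0826).

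The pocket protein genes RBL1 and RBL2 moved in opposite directions at 72 h. RBL1 (chromosome 20, 35624752 to 35724400 of GRCh37, minus strand), whose upstream sequence holds the E2F matches shown above, stood at 35.3, 34.2, 30.8 and 28.1 CPM in the 72 h control. Sal gave 8.19, 9.33, 11.1 and 14.2 CPM and S + D 8.04, 11.3, 11.2 and 12.1 CPM. The highest treated library reached no more than 14.2 CPM, and the lowest control library was at 28.1 CPM. RBL1 was 3.03-fold lower with Sal (log2 -1.60, SE 0.21, adjusted p = 4.08e-06) and 3.05-fold lower with S + D (log2 -1.61, SE 0.21, adjusted p = 3.52e-06), or at -1.83 and -1.74 from the numbered libraries. With Das it was at 22.4, 25.0, 42.3 and 24.0 CPM. Replicate 3 again stood above the controls and the other 3 below them, with a log2 difference of -0.18 (SE 0.20, adjusted p = 0.519), or -0.42 (SE 0.17, adjusted p = 0.056) without replicate 3. At 24 h RBL1 with S + D was at 29.5, 28.3, 29.96 and 20.8 CPM against 37.7, 35.6, 36.3 and 29.4 CPM in the control, a log2 difference of -0.32 (SE 0.17, adjusted p = 0.148), or -0.30 (adjusted p = 0.000823) from the numbered libraries.

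RBL2 (chromosome 16, 53467889 to 53525560 of GRCh37, plus strand), the pocket protein of resting cells, rose with Sal and with S + D. In the 72 h control it stood at 187, 191, 180 and 162 CPM. Sal gave 280, 319, 320 and 211 CPM, Das 265, 262, 224 and 209 CPM, and S + D 271, 310, 306 and 259 CPM. All 3 groups lay above every control library. The rise was 1.55-fold with Sal (log2 0.63, SE 0.13, adjusted p = 0.00039) and 1.58-fold with S + D (log2 0.66, SE 0.13, adjusted p = 0.000271), or at log2 0.70 and 0.65 from the numbered libraries. With Das the log2 difference of 0.41 (SE 0.13, adjusted p = 0.0224) missed the threshold with all libraries and passed it in the numbered ones (0.42, adjusted p = 0.00651). At 24 h RBL2 was called with S + D, from 166, 161, 157 and 147 CPM to 204, 200, 200 and 203 CPM (log2 0.39, SE 0.09, adjusted p = 0.00308). That call was lost without control replicate 2, control replicate 3 or the unnumbered control, the highest adjusted p being 0.0136. Other annotated genes share 16.4% of the RBL2 exon bases. Of those in the count table, AKTIP on the opposite strand shares 7.5%.

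**Figure D4:**
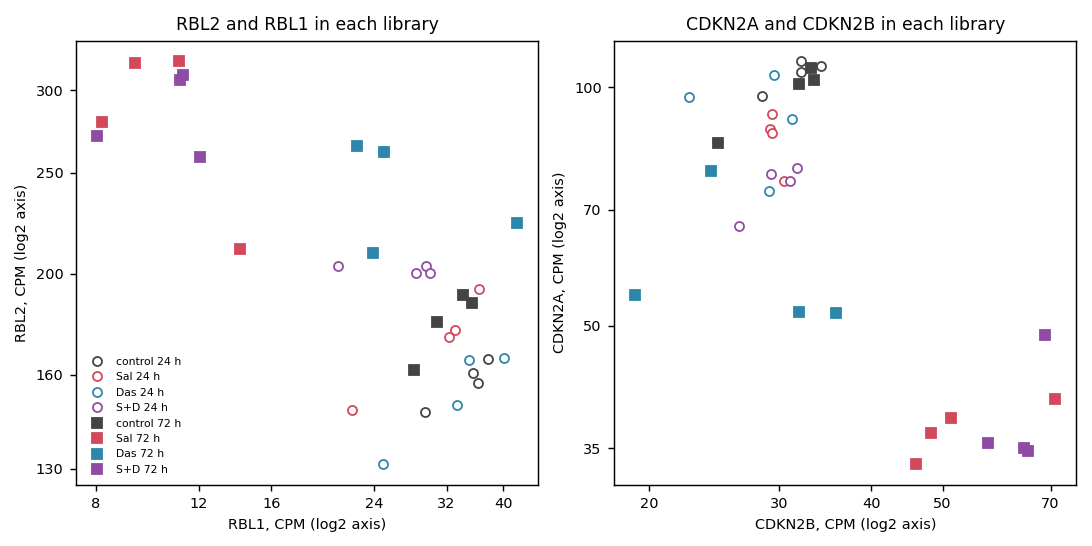
RBL2 against RBL1 and CDKN2A against CDKN2B in each of the 32 libraries, in CPM on log2 axes, with open circles for 24 h and filled squares for 72 h. The Sal and S + D libraries of 72 h lie apart from all others by low RBL1, low CDKN2A and high CDKN2B. Their RBL2 is high but overlaps that of Das at 72 h.

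Per length, RBL2 was 6.58 ± 0.271 times RBL1 in the 72 h control (SD, n = 4). With Sal the ratio was 32.8 ± 10.6 (SD, n = 4), from 17.5 in the unnumbered library to 40.01, and with S + D 32.3 ± 5.87 (SD, n = 4). Das gave 10.6 ± 3.31 (SD, n = 4), the lowest library being replicate 3 at 6.19. At 24 h the ratio was 5.34 ± 0.362 in the control and 8.90 ± 1.70 with S + D (SD, n = 4). The ratios of the Sal and S + D groups at 72 h thus lay above every library of the 72 h control, whose highest was 6.83.

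Counted over the 10 members, the shares called have to be read beside those of all genes tested. At 24 h, 0 members were called with Sal by edgeR (3 with an unadjusted p under 0.05, and 1 by DESeq2), where 6.78% of all 16357 genes were called in either direction. With Das 1 member was lower, and 6.88% of all genes were. With S + D 2 members were higher and 2 lower, against 17.1% and 16.5% of all genes. At 72 h, 3 members were higher and 3 lower with Sal, against 26.3% and 26.8% of all 16682 genes. The same 6 members were called in the same directions with S + D, where 27% of all genes were higher and 27.9% lower. These shares are near those of all genes, and the comparisons with Sal and S + D share their control libraries. With Das at 72 h 1 member was lower, and 9.36% of all genes were. With the added cutoff of an absolute log2 fold change above 1.5, RBL1 alone passed with Sal and with S + D, where 18.7% and 20.2% of all genes did. The median log2 fold change of the members was 0.15 with Sal and 0.30 with S + D at 72 h, and 0.00 and 0.01 over all genes. From the numbered libraries alone, the 24 h counts were 2 members for Sal, 3 for Das and 8 for S + D (4 higher and 4 lower), beside 23.5%, 39.3% and 58.1% of all genes in either direction. At 72 h these counts were 6, 2 and 6, beside 57.3%, 22.6% and 57.8% of all genes. With a replicate block S + D at 24 h had 7 members called, beside 50.2% of all genes.

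Next, S + D was compared with each drug alone. At 24 h CDKN2C was lower with S + D than with Sal (log2 -0.98, SE 0.12, adjusted p = 3.65e-05), 1 of 10 members where 7.06% of all genes were lower. Against Das at 24 h, CDKN1B (0.30, SE 0.06, adjusted p = 0.00485) and RBL2 (0.41, SE 0.09, adjusted p = 0.007) were higher, 2 members where 4.03% of all genes were. Both calls against Das were fragile: they were lost in 7 and 6 of the 8 fits that left out 1 library, and the weakest, in both cases the one lacking Das replicate 1, had an adjusted p of 0.0187 for CDKN1B and 0.0242 for RBL2. At 72 h, 0 members differed between S + D and Sal by edgeR (1 with an unadjusted p under 0.05, 0 by DESeq2), against 3.01% of all genes. The differences of RBL1 (-0.01, SE 0.21), RBL2 (0.02, SE 0.13) and CDKN2A (0.05, SE 0.15) lay closest to 0 and that of CDKN1C, at 0.75 (SE 0.23, adjusted p = 0.048), farthest. Against Das at 72 h, CDKN1A (1.52, SE 0.23, adjusted p = 4.99e-05) and CDKN2B (1.19, SE 0.18, adjusted p = 4.99e-05) were higher with S + D, where 14.3% of all genes were. RBL1 (-1.43, SE 0.21), CDKN2C (-0.92, SE 0.20) and CDKN2A (-0.63, SE 0.15) were lower, where 17.7% of all genes were. Without Das replicate 3 these 3 were at -1.15 (adjusted p = 6.24e-05), -0.56 (adjusted p = 0.00202) and -0.44 (adjusted p = 0.0117), so CDKN2A was no longer called. CDKN1C (0.69, SE 0.23, adjusted p = 0.018) and CDKN2D (0.70, SE 0.22, adjusted p = 0.0148) missed the threshold. Both passed as higher by DESeq2 (adjusted p = 0.00505 and 0.00482) and from the numbered libraries (0.92 and 0.86, adjusted p = 0.00203 and 0.000506). They also passed without the unnumbered Das library (1.01, adjusted p = 0.000609, and 1.02, adjusted p = 0.000369).

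Whether the response to S + D differed from the sum of the single responses was tested as an interaction, which is 0 when the log2 responses add up. At 24 h, 0 members were called by edgeR or DESeq2 (1 with an unadjusted p under 0.05), as were 0.0306% of all genes. At 72 h, 0 members were called by edgeR (3 with an unadjusted p under 0.05) and 1 by DESeq2, against 7.52% of all genes. CDKN2A had the interaction with the lowest adjusted p, 0.79 (SE 0.21, adjusted p = 0.0137), its fall with S + D being smaller than the single falls added together. Without Das replicate 3 the value was 0.95 (SE 0.17) and passed (adjusted p = 0.000862). For RBL1 the interaction was 0.17 (SE 0.29) and for CDKN1A 0.40 (SE 0.32, adjusted p = 0.408), and in the numbered libraries the latter was 0.67 (adjusted p = 0.00888). CDKN1C, at 0.83 (SE 0.32, adjusted p = 0.0771), passed without the unnumbered Das library (1.12, adjusted p = 0.00747).

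The change of each response between 24 h and 72 h was tested in a fit of all 32 libraries. For Sal, CDKN2B responded more strongly upwards at 72 h (log2 0.91, SE 0.21, adjusted p = 0.00128), 1 member where 8.21% of all 17227 genes did so. CDKN2A (-1.13, SE 0.18, adjusted p = 2.02e-05) and RBL1 (-1.42, SE 0.28, adjusted p = 0.000234) shifted downwards, where 13.7% of all genes did. S + D gave the same 3 genes in the same directions, with CDKN2B at 1.15 (SE 0.21), CDKN2A at -0.88 (SE 0.18) and RBL1 at -1.24 (SE 0.28), against 6.15% of all genes upwards and 10.1% downwards. The largest value for S + D was that of CDKN2D, 1.32 (SE 0.43), which missed the threshold (adjusted p = 0.0232) and passed without the unnumbered 24 h S + D library (1.89, adjusted p = 0.000215). From the numbered libraries 6 members were called for Sal and 5 for S + D, where 39.3% and 31.5% of all genes were. They added CDKN1A (0.70 for Sal and 0.88 for S + D) to both, CDKN2C (-0.80) and RBL2 (0.53) for Sal, and CDKN2D (1.82) for S + D. In contrast, 0 members had a response to Das that differed between the times by edgeR or DESeq2 (4 with an unadjusted p under 0.05), and 0.226% of all genes had one. CDKN2C, which fell with Das at 24 h, had the value 0.77 (SE 0.24, adjusted p = 0.106). That value was 0.43 (SE 0.17, adjusted p = 0.137) without Das replicate 3 of 72 h. CDKN2A, at -0.54 (SE 0.18, adjusted p = 0.124), passed without Das replicate 3 of 72 h (-0.71, adjusted p = 0.00805). Between the controls of 72 h and 24 h, 0 members were called by edgeR (2 with an unadjusted p under 0.05) and 1 by DESeq2, where 2.76% of all genes were.

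**Figure D5:**
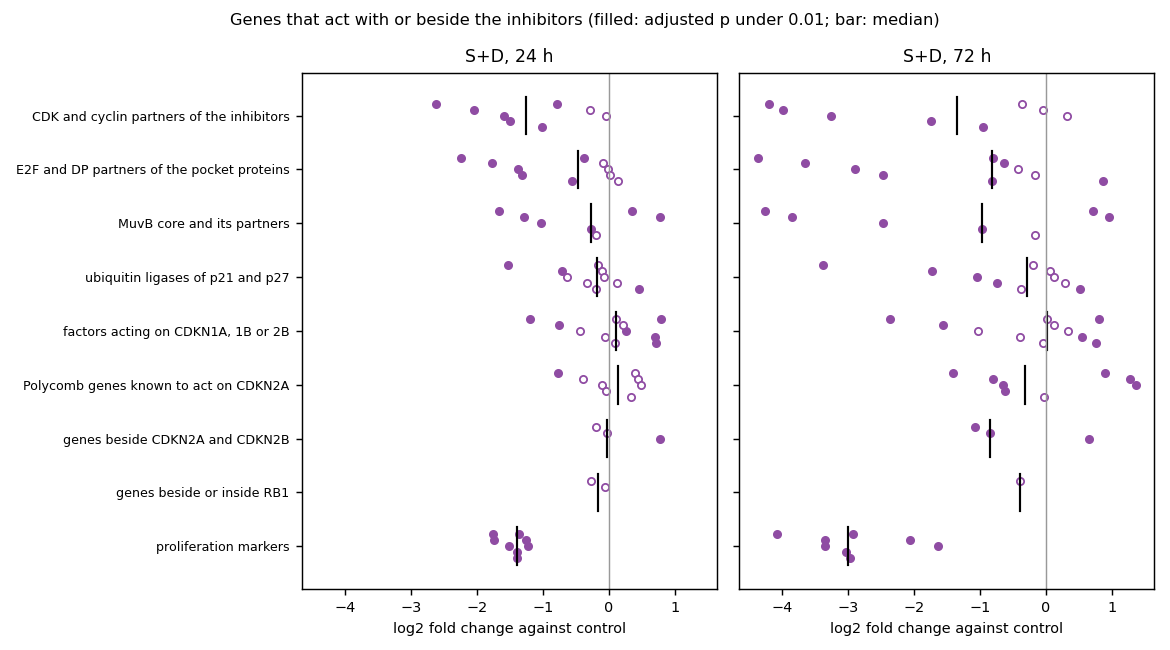
Log2 fold change with S + D at 24 h and 72 h (horizontal axes) of genes that work with, act on or lie beside the 10 genes, each point a gene, filled where the adjusted p was under 0.01, with a bar at the list median. All 8 proliferation markers were lower at both times.

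Most of the cyclins, E2F factors and MuvB partners that work with these proteins fell with S + D at 72 h. Of 9 genes of CDKs and cyclins, 8 passed the filter (CCND2 was at 0 counts in all libraries), and with S + D at 72 h 5 were lower and 0 higher, with a median log2 fold change of -1.35. CCND1, the cyclin that INK4 proteins keep from CDK4 and CDK6, went from 282 ± 6.33 to 17.9 ± 2.31 CPM (SD, n = 4), a log2 change of -3.99 (adjusted p = 9.71e-11), and CCNE2 and CCNA2, cyclins of CDK2, changed by -4.21 and -3.27. Of the 10 E2F and DP genes 7 were lower and 1 higher (median -0.82), led by E2F7 (-4.37), E2F2 (-3.65) and E2F1 (-2.90). The one that rose was E2F4, the usual partner of RBL1 and RBL2, named here after its values were seen: it went from 51.5 ± 5.23 to 95.6 ± 4.06 CPM (SD, n = 4; log2 0.87, adjusted p = 5.95e-05). Of the 7 genes of the MuvB core and its partners 4 were lower and 2 higher, with MYBL2 (-4.27) and FOXM1 (-3.85), the activators that replace the pocket proteins on MuvB in cycling cells, and LIN9 (-2.48) changed most. All 8 proliferation markers were lower (median -3.00), with MKI67 at -4.08, BIRC5 at -3.36 and TOP2A at -3.36. Over all genes tested, 27.9% were lower and 27% higher, and the median was 0.01. Sal alone at 72 h gave much the same, beside 26.8% of all genes lower and 26.3% higher. It had 5 CDK and cyclin genes lower and 1 higher (median -1.13) and 8 E2F and DP genes lower and 1 higher (-0.80). For MuvB 4 were lower and 2 higher (-0.87), and all 8 markers were lower (-2.65). Between S + D and Sal at 72 h, 1, 0, 0 and 0 genes of these lists were lower and 0 higher, where 3.01% of all genes differed.

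Genes that act on the members were mixed. Among 10 genes of the ubiquitin ligases that act on p21 and p27, 4 were lower and 1 higher with S + D at 72 h (median -0.29), and DTL (-3.39), SKP2 (-1.73, adjusted p = 1.21e-07) and CKS1B (-1.05) were the lowest. SKP2 fell while CDKN1B RNA was not called at that time. Of 11 transcription factors known to act on CDKN1A, CDKN1B or CDKN2B, 3 were higher and 2 lower (median 0.01). MYC, a repressor of CDKN1A and CDKN2B, was at 149 ± 24.8 CPM in the 72 h control, 20.8 ± 1.202 CPM with Sal and 29.3 ± 1.65 CPM with S + D (SD, n = 4; log2 -2.86 and -2.36). SMAD3, which carries TGF-beta signals to CDKN2B, was at -1.56 and KLF4, an activator of CDKN1A, at 0.81. Of 8 Polycomb genes known to act on CDKN2A, 4 were lower and 3 higher (median -0.32): EZH2, the methyltransferase, was at -1.41, and CBX7 and RING1, subunits of the other Polycomb complex, at 1.36 and 1.28. The counts of these 3 lists stand beside 27.9% of all genes lower and 27% higher. Between S + D and Sal at 72 h, 0 genes of these 3 lists were called, where 3.01% of all genes were.

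With Das alone at 24 h, beside the fall of CDKN2C, 5 of the 8 CDK and cyclin genes tested, 3 of the 10 E2F and DP genes and all 8 proliferation markers were lower (median -1.13 for the markers), beside 6.88% of all genes. CCND1 was at 105 ± 20.6 CPM with Das against 258 ± 6.27 CPM in the 24 h control (SD, n = 4; log2 -1.27, adjusted p = 2.52e-05). At 72 h it was at 64.5 CPM with Das, from 49.7 to 98.5 CPM (log2 -2.13, adjusted p = 2.44e-07), far below the control in every library. The lists as a whole had fewer calls with Das at 72 h, replicate 3 included. Lower were 3 of the 8 CDK and cyclin genes, 1 of the 10 E2F and DP genes and 1 of the 8 markers. The median of the markers was -0.78, and 9.36% of all genes were lower.

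For each member the 2 genes with the most similar pattern were sought over the 32 libraries, among genes with a mean of at least 1 CPM, as a description in which the libraries share treatments and the unnumbered group. RBL1 was closest to DNAJC22 and AADAT (Pearson r of log2 CPM 0.976 and 0.974), CDKN2A to PDE6D and UTP4 (0.977 and 0.974), RBL2 to DYM and PIK3CB (0.964 and 0.958) and CDKN1A to SPG7 and NDUFAF3 (0.958 and 0.957). CDKN2C was closest to ASH2L and to RACGAP1, a gene of cytokinesis (0.954 and 0.952), CDKN2B to SLC16A1 and MGAT2 (0.914 and 0.911), and CDKN1C to LPCAT4 and METRNL (0.927 and 0.919). The likeness was less for CDKN2D, with WRNIP1 and BAX (0.899 and 0.889), CDKN1B, with CEP57 and RARS2 (0.883 and 0.851), and the scarcely expressed RB1, with ANAPC13 and MAGEF1 (0.713 and 0.658).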

How the data were processed

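Whole RNA of MDA-MB-468 cells was made into libraries with the TruSeq kit and sequenced as short single-end reads, 4 libraries in each of 8 conditions. Per the methods, the authors used bcl2fastq 2.19, STAR 2.5.2 against GRCh37, Cufflinks 2.1.1 and DESeq2. The deposited values are raw counts per Ensembl gene, whole numbers without normalization. The counting program, its annotation and its use of strand are not given in the sources used here, so antisense overlaps could not be resolved. Of 48804 identifiers 46537 matched a symbol.

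Counts were analysed with edgeR 4.0.16 (quasi-likelihood test, TMM, filterByExpr at a minimum count of 10, Benjamini-Hochberg adjustment) in R 4.3.3: 16 libraries of a time point per fit, 32 where times were compared, with 16357, 16682 and 17227 genes tested. A gene was called at an adjusted p under 0.01. The study's further cutoff, an absolute log2 fold change above 1.5, was an alternative, as were RLE size factors, no filter, DESeq2 1.42.0, a replicate block, a batch term, the numbered libraries alone, other sets of libraries in the fit and each library left out in turn. The procedure was tested on simulated data without a shared shift of the unnumbered libraries. That test therefore does not cover calls that depend on those libraries. Levels are CPM with TMM factors, per kb of the GENCODE canonical transcript where genes were compared. Windows before start sites came from RefSeq (GRCh38.p14), gene positions from GENCODE (GRCh37).

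The members and lists were chosen with earlier results of these data known. Named genes were all members, in each list up to 3 called genes with the largest change with S + D at 72 h plus SKP2, MYC, E2F1, LPAR6, ITM2B, RCBTB2, CDKN2B-AS1 and MTAP, and the 2 genes most like each member. The marker PECAM1 was not analysed here, and 1 of the gene lists is not reported here. P-values measure the spread between these cultures of 1 cell line.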

Additional observations from a re-analysis of the deposited data

Results flagged for a closer look

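In 15 of the 80 sets of 4 libraries (10 genes in 8 conditions) the highest library stood apart by Dixon's test, where chance gives about 1 in 20, and 11 of the 15 were unnumbered libraries. For CDKN1A these were the unnumbered libraries of Sal at 24 h (105.9 CPM), Das at 24 h (61.49 CPM), S + D at 24 h (86.96 CPM) and Sal at 72 h (143.8 CPM). For CDKN1C they were those of Sal (4.035 CPM), Das (4.721 CPM) and S + D (5.45 CPM) at 24 h, and for CDKN2D those of Das (46.6 CPM) and S + D (58.92 CPM) at 24 h and of the 72 h control (41.94 CPM). CDKN2B had 1, with Sal at 24 h (30.46 CPM). Replicate 3 of Das at 72 h stood apart for CDKN2A (78.43 CPM), CDKN2C (62.57 CPM) and RBL1 (42.31 CPM), and replicate 1 of S + D at 72 h for CDKN2A (48.63 CPM).

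By the test of the difference between the times, 6 responses differed between 24 h and 72 h. For Sal the log2 response of CDKN2A was lower at 72 h by -1.131 and that of RBL1 by -1.416, while that of CDKN2B was higher by 0.914. For S + D the corresponding values were -0.8789, -1.239 and 1.153.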

How the results depend on the processing

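Of the 32 calls of members, 26 held in every alternative fit and with each library left out, 3 were past the added fold cutoff of 1.5, and no value of a member reversed where it had been called. Counts of members called moved by over 1.5 times as follows. The shared replicate numbers did not pair the samples (same-number correlation of deviations, median -0.0469 at 24 h and 0.0181 at 72 h), and a replicate block gave 1 member for Sal, 3 for Das and 7 for S + D at 24 h, 3 for S + D against Sal at 24 h, 3 for Das at 72 h, 1 for the 72 h interaction, 5 for the change of the Sal response, 5 for that of S + D and 2 between controls. A term for the unnumbered libraries gave the same 9 counts, and 4 for S + D against Das at 24 h. The numbered libraries alone gave, in the same order, 2, 3, 8, 2, 2, 1, 6, 5 and 3, and 4 for S + D against Das at 24 h. DESeq2 gave 1 for Sal at 24 h, 2 for Das at 72 h, 1 for the 72 h interaction and 1 between controls. An adjusted p under 0.05 gave 2 for Sal at 24 h, 3 for Das at 72 h, 1 for S + D against Sal at 72 h, 1 for the 72 h interaction, 5 for the Sal response and 2 between controls. With the fold cutoff, 1 member was left for Sal, S + D and S + D against Das at 72 h, and 0 for Das at either time, S + D at 24 h, S + D against Sal or Das at 24 h and the changes of the Sal and S + D responses. Without a filter S + D at 24 h had 2 and S + D against Das at 24 h 0. All 32 libraries in 1 fit gave 0 for S + D against Das at 24 h, 3 for Das at 72 h and 2 for the 72 h interaction, and only the groups compared gave 0 and 3 for S + D against Das at 24 h and 72 h and 3 between controls. With 1 library left out, the counts ran from 1 to 2 for S + D against Sal at 24 h, 0 to 1 for S + D against Das at 24 h, 1 to 3 for Das at 72 h, 0 to 1 for the 72 h interaction, 0 to 1 for the change of the Das response and 0 to 1 between controls. The shares of all genes moved as well. For S + D at 24 h they were 17.1% higher and 16.5% lower in the main fit. In either direction, 50.2% were called with a replicate block and 58.1% from the numbered libraries. The share over all genes is not given for every setting, so these counts are not read as results about the members. The cause of these shifts was not tested. RB1, at 15 to 71 counts per library, is the member that depth limits most.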
